A study of Homo sapiens with 20 samples.

Results

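Silencing of FOSL1, the gene that encodes the AP-1 subunit FRA1, was accompanied in both A375 and 1205Lu melanoma cells by lower mRNA of 9 genes with varied cellular roles: CLTA, RELL1, SLC39A9, SLC44A1, STARD7, AMMECR1, MPP4, RCAN3 and TXNDC12. With si-FRA1, between 23.0% (CLTA) and 41.4% (SLC39A9) of the si-NT level was left in A375 cells, and between 25.2% (RELL1) and 46.5% (SLC44A1) in 1205Lu cells. The 9 genes were selected on these measured differences: they are a named list taken from the 66 of 15056 genes tested in both lines (0.438%) that were higher with si-NT by a log2 fold change over 1 at an adjusted p under 0.05 in each line. The silencing contrast of the 9 genes is therefore given as a description with standard errors and no p-value. RNA-seq counts were given for 58870 genes and Cut&Run counts for 54563 consensus peaks, of which 64 overlapped one of the 9 genes or lay within 50 kb of one.

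A375 and 1205Lu are established human melanoma cell lines. RNA-seq was done on 12 samples, 3 of each line treated with non-targeting siRNAs (si-NT) and 3 of each line treated with siRNAs against FRA1 (si-FRA1, named si-FOSL1 in the sample titles). Cut&Run, which cuts and sequences the DNA next to a protein bound by an antibody, was done on 8 samples of cells for which no siRNA is named, with 3 FRA1 libraries and 1 IgG control library per line. No source used here says that replicates came from separate cultures, so the p-values measure the spread between these samples, which may be technical.

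The 9 genes belong to different systems. CLTA encodes clathrin light chain A of the coat that buds vesicles from the plasma membrane and the trans-Golgi network, and RELL1 is a membrane protein of the RELT family, which resembles TNF receptors. SLC39A9 is a zinc transporter of the ZIP family and SLC44A1 a choline transporter of the plasma and mitochondrial membranes. STARD7 carries phosphatidylcholine to mitochondria, MPP4 is a scaffold of the membrane-associated guanylate kinase family known from the retina, RCAN3 is a regulator of the phosphatase calcineurin, TXNDC12 is a thioredoxin-fold protein of the endoplasmic reticulum, and AMMECR1 is a protein of little-known function named after an X-linked contiguous gene syndrome. FRA1 binds DNA as a dimer with a JUN protein at AP-1 sites. An siRNA also pairs through its seed, bases 2 to 8 of the guide strand, with the 3'UTRs of other mRNAs, as a microRNA does.

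The sequence GAGTAGC occurs once in the FOSL1 mRNA and was searched in the other mRNAs because it had stood out among genes lower with si-FRA1 in earlier work on these data. The siRNA sequences are not given in the sources used here, so it is unknown whether an siRNA was directed at it. In GENCODE v44 transcripts on GRCh38 it lay in the coding sequence of FOSL1 (exon 4, chr11:65892946-65892952, minus strand). It also lay in the mRNA of 5 of the 9 genes, of which 6 sites are listed here with the matching 7 bases in capitals and the mRNA strand read 5′ to 3′, since they show how far the match to FOSL1 extends.
FOSL1 coding sequence: agctcatcgcaaGAGTAGCagcagcagcgg
CLTA 3'UTR: gaagcttcccaaGAGTAGCctcaacctgtg
RCAN3 3'UTR: cacggtcgtgtaGAGTAGCagctgatttga
RELL1 stop codon: cgcagtggcacaGAGTAGCagcaatgactt
SLC44A1 3'UTR: ccaacattgcgaGAGTAGCtattttgaaag
AMMECR1 3'UTR, nearer the stop codon: tgaacttcatttGAGTAGCacaaagtttac
AMMECR1 3'UTR, farther: aaaagctacctgGAGTAGCtcctcttttcc

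The unbroken match to FOSL1 reached 12 bases at the RELL1 stop codon (exon 6, chr4:37631387-37631393), 11 bases in RCAN3 (exon 5, chr1:24535435-24535441) and 10 bases in CLTA (exon 5, chr9:36211998-36212004). It was 8 bases at the site shown of SLC44A1 (exon 16, chr9:105390846-105390852) and at the nearer site of AMMECR1 (exon 6, chrX:110195576-110195582). No more than the 7 bases matched at the farther site of AMMECR1 (chrX:110194499-110194505), nor at the sites not listed, in the 3'UTRs of RELL1 and SLC44A1. Over a 19-base window that holds the 7 bases, the order was another one. There, 13 bases matched FOSL1 in CLTA and at the site shown of SLC44A1, and 12 at the nearer site of AMMECR1. At the RELL1 stop codon 11 matched, and in RCAN3 10.

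Each RNA-seq sample summed to between 20573412 and 32518903 counts. The sums in peaks were between 3354095 and 5316527 in the A375 FRA1 samples and between 583750 and 897407 in the 1205Lu FRA1 samples. The IgG samples held 383994 counts in A375 and 314569 in 1205Lu. FOSL1 itself stood at 413, 424 and 408 CPM (the count scaled to the normalised library size) with si-NT and at 25.7, 25.7 and 26.0 CPM with si-FRA1 in A375. In 1205Lu it stood at 492, 484 and 478 CPM and at 69.4, 70.9 and 65.1 CPM. Of 8 melanocyte lineage markers, 2 in A375 and 3 in 1205Lu reached a mean of 1 CPM with si-NT. These were MITF (52.18 CPM) and SOX10 (43.96 CPM) in A375, and SOX10 (913.7 CPM), S100B (427.3 CPM) and MITF (3.551 CPM) in 1205Lu. Pigment genes such as TYR and MLANA did not reach 1 CPM in either line. All 4 markers of dedifferentiated melanoma (AXL, NGFR, EGFR and WNT5A) reached 1 CPM, with NGFR the lowest at 7.77 CPM in A375 and 3.12 CPM in 1205Lu. None of 5 markers of keratinocytes, fibroblasts and leukocytes did. The counts of 1205Lu FRA1 replicates 2 and 3 differed by about the sampling noise (a ratio of chi-square to its degrees of freedom of 1.01 over 10418 peaks with at least 40 counts in the pair, and of 1.06 with at least 20) and were counted as 1 sample. The other pairs of this group were at 1.64 and 1.49 with at least 40 counts, and A375 FRA1 replicates 1 and 3, at 1.07, were kept apart. In these bulk samples, fewer cells and less RNA per cell cannot be told apart.

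CLTA, the clathrin light chain (GRCh38 chr9:36190856-36304781, plus strand), had the highest fold change of the 9 genes in A375. Its level with si-NT was 77.2, 81.8 and 82.7 CPM in A375, against 19.5, 19.03 and 17.2 CPM with si-FRA1. In 1205Lu it was 120, 121 and 125 CPM against 35.5, 36.0 and 34.1 CPM. The groups lay far apart in both lines, with log2 fold changes, si-NT over si-FRA1, of 2.12 ± 0.0543 (SE) in A375 and 1.81 ± 0.0407 in 1205Lu.

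RELL1, the RELT family membrane protein (chr4:37590800-37686376, minus strand), was lower with si-FRA1 by nearly the same ratio in both lines although its level differed between them. It stood at 34.3, 33.7 and 32.1 CPM against 7.87, 7.56 and 9.35 CPM in A375. In 1205Lu it stood at 170, 171 and 165 CPM against 41.5, 42.8 and 43.2 CPM, so that its si-FRA1 samples in 1205Lu were above its si-NT samples in A375. The log2 fold changes were 2.02 ± 0.0824 and 2.01 ± 0.0353.

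The transporters SLC39A9 and SLC44A1 had smaller fold changes. SLC39A9, the zinc transporter (chr14:69398015-69462390, plus strand), was at 80.3, 74.3 and 73.5 CPM with si-NT and at 30.8, 31.5 and 32.0 CPM with si-FRA1 in A375, a log2 fold change of 1.28 ± 0.0481. In 1205Lu it was at 74.3, 74.4 and 79.9 CPM and at 29.7, 29.2 and 29.99 CPM, a log2 fold change of 1.38 ± 0.0478. Both its levels with si-NT and its levels with si-FRA1 were thus near alike in the lines. SLC44A1, the choline transporter (chr9:105244622-105439171, plus strand), was at 86.8, 87.1 and 87.4 CPM with si-NT and at 32.8, 36.9 and 35.8 CPM with si-FRA1 in A375, a log2 fold change of 1.32 ± 0.0466. In 1205Lu it was at 61.0, 58.2 and 59.4 CPM and at 27.8, 26.5 and 28.7 CPM, a log2 fold change of 1.125 ± 0.0507, the lowest of the 9 genes in either line.

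STARD7, the phosphatidylcholine carrier (chr2:96184859-96208827, minus strand), stood at 61.1, 56.1 and 56.9 CPM with si-NT and at 19.1, 22.1 and 22.3 CPM with si-FRA1 in A375. In 1205Lu it stood at 101, 102 and 102 CPM and at 43.3, 46.2 and 46.0 CPM. Its log2 fold change was 1.47 ± 0.0604 in A375 and 1.19 ± 0.0393 in 1205Lu. TXNDC12, the thioredoxin-fold protein of the endoplasmic reticulum (chr1:52020131-52055191, minus strand), stood at 77.9, 73.2 and 76.9 CPM with si-NT and at 26.2, 22.6 and 24.6 CPM with si-FRA1 in A375, a log2 fold change of 1.635 ± 0.0536. In 1205Lu it stood at 38.5, 36.7 and 37.5 CPM and at 13.1, 12.5 and 9.28 CPM, a log2 fold change of 1.71 ± 0.0888, with si-FRA1 replicate 3 the lowest.

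RCAN3, the calcineurin regulator (chr1:24502351-24541040, plus strand), was scarce in A375 and abundant in 1205Lu. It was at 13.1, 15.9 and 16.5 CPM with si-NT and at 4.32, 4.84 and 6.11 CPM with si-FRA1 in A375, and at 106, 111 and 114 CPM and at 41.8, 43.4 and 40.8 CPM in 1205Lu. The log2 fold changes were 1.59 ± 0.128 and 1.41 ± 0.0420. AMMECR1 (chrX:110194186-110440318, minus strand) was at 17.0, 15.1 and 18.1 CPM with si-NT and at 5.85, 7.93 and 6.19 CPM with si-FRA1 in A375. It was at 62.8, 63.7 and 64.9 CPM and at 26.2, 25.4 and 26.2 CPM in 1205Lu, with log2 fold changes of 1.34 ± 0.114 and 1.32 ± 0.0483. MPP4, the guanylate kinase scaffold (chr2:201644870-201698694, minus strand), was the least abundant. Its counts per sample were 111 to 135 with si-NT and 38 to 46 with si-FRA1 in A375, and 95 to 108 and 23 to 31 in 1205Lu. Its log2 fold changes, 1.73 ± 0.199 and 1.73 ± 0.219, had the highest standard errors of the 9 genes.

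**Figure D1:**
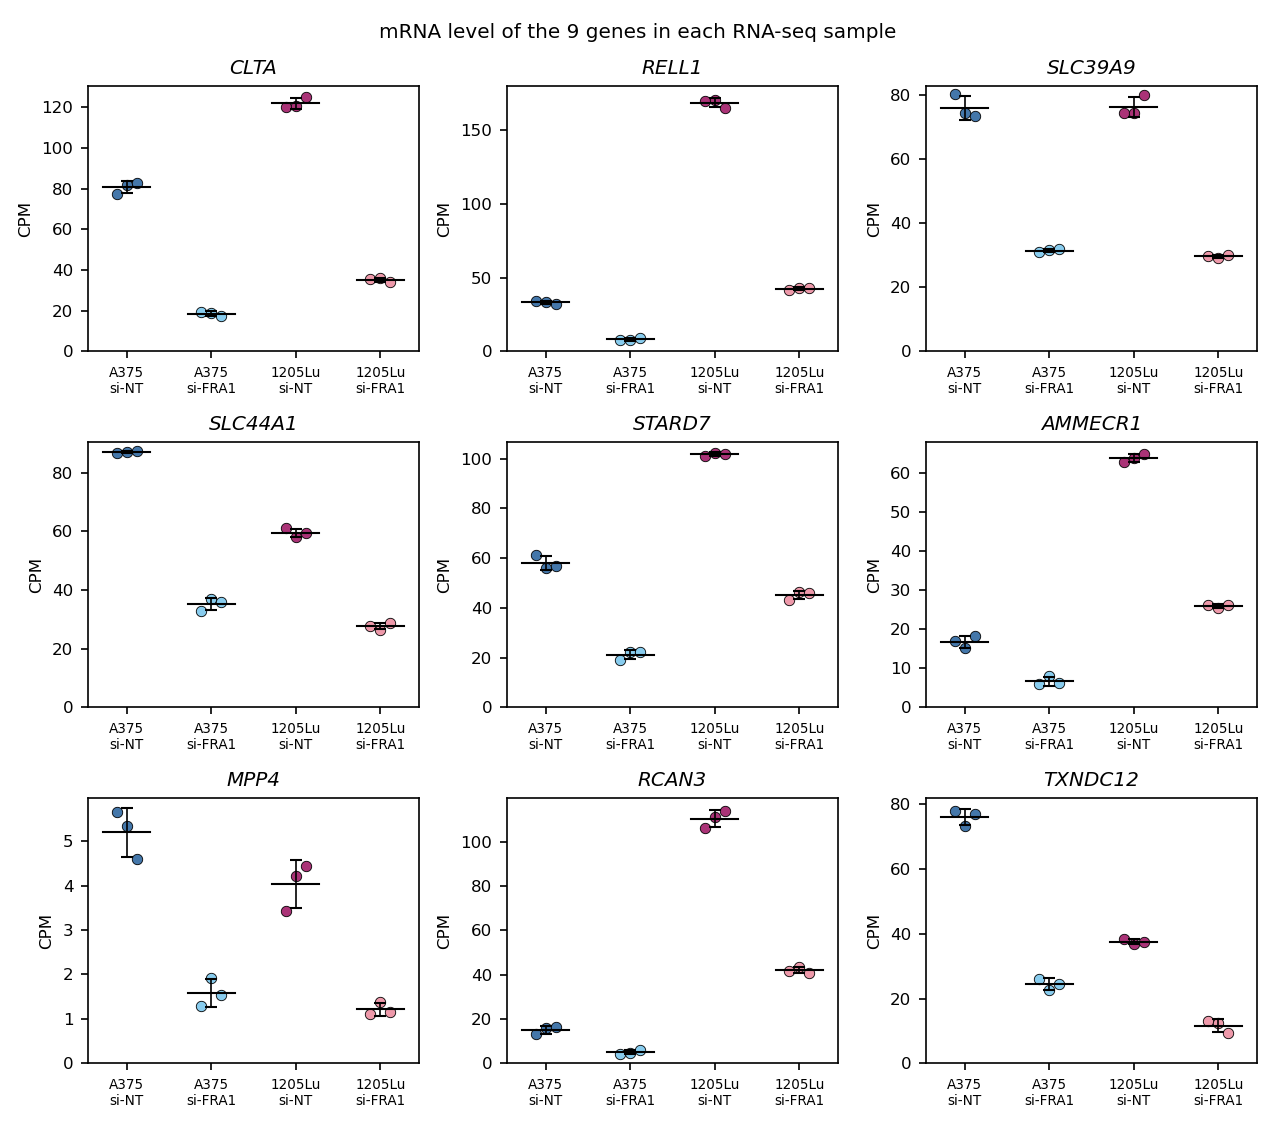
Level of each of the 9 genes (vertical axis, CPM on normalised library sizes, from 0) in each RNA-seq sample of the 4 groups (horizontal axis), with points for the 3 samples of a group, a bar for their mean and a whisker for ± SD. In every panel the si-FRA1 points of a line sit below its si-NT points, and RELL1, RCAN3 and AMMECR1 stand far higher in 1205Lu than in A375.

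In all 9 genes and in both lines, each si-NT sample was above each si-FRA1 sample. Among all genes tested, this held for 27.6% in A375 and 23.2% in 1205Lu. All 9 passed the limits by which they were chosen (log2 fold change over 1, adjusted p under 0.05 by edgeR), as did 2.79% of 16899 genes in A375 and 2.04% of 17136 genes in 1205Lu. The median log2 fold change of the 9 genes was 1.59 in A375 and 1.41 in 1205Lu, beside 0.0026 and 0.0048 over all genes tested. The fold change was larger in A375 for 7 of the 9 genes and larger in 1205Lu for SLC39A9 and TXNDC12. The largest gaps between lines were those of CLTA (0.31 ± 0.0678), STARD7 (0.28 ± 0.0721) and SLC44A1 (0.19 ± 0.0688). These gaps come from the values that chose the genes, and no share over all genes is set beside them. FOSL1 itself was left at 6.22% of its si-NT level in A375 and at 14.1% in 1205Lu. Whether the lines differed was not tested.

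Of the 66 genes called in both lines, 19 had a lower minimum of their 2 log2 fold changes than SLC44A1. Just inside the limit of 1 were BRI3BP (1.34 and 1.01), FAM162A (1.02 and 1.85) and NF2 (1.79 and 1.03) in A375 and 1205Lu. Just outside were HELLS (1.496 and 0.996), F3 (1.65 and 0.994) and MTFP1 (0.985 and 1.049). The 5 other genes closest to the median pair of the 9 genes, by Euclidean distance over the 2 log2 fold changes, were SSTR5-AS1, URM1, MUC2, ATP6V1G1 and ERO1A. Of these, URM1 (1.64 ± 0.0606 and 1.37 ± 0.0704), ATP6V1G1 (1.54 ± 0.0554 and 1.295 ± 0.0523) and ERO1A (1.46 ± 0.0342 and 1.42 ± 0.0431) had small standard errors.

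The difference between the lines with si-NT was not used by the choice of the genes and was tested with edgeR. Its si-NT samples are also those of the silencing contrasts by which the genes were chosen. RCAN3, RELL1 and AMMECR1 were 7.63-fold, 5.32-fold and 4.01-fold higher in 1205Lu, with log2 fold changes, A375 over 1205Lu, of -2.93 ± 0.0601, -2.41 ± 0.0373 and -2.004 ± 0.0590 and adjusted p of 1.8e-19, 2e-21 and 6.8e-17. STARD7 and CLTA were also higher in 1205Lu (-0.88 ± 0.0382 and -0.67 ± 0.0359, adjusted p of 3.6e-14 and 1.2e-12). TXNDC12 and SLC44A1 were higher in A375 (0.94 ± 0.0437 and 0.47 ± 0.0371, adjusted p of 1.1e-13 and 4.8e-10). SLC39A9 (-0.08 ± 0.0423, adjusted p of 0.1) and MPP4 (0.30 ± 0.171, adjusted p of 0.12) did not pass. So 5 of the 9 genes were higher in 1205Lu and 2 in A375, while 38.8% and 39.2% of the 18050 genes tested were higher in 1205Lu and A375. SLC39A9 changed sign without a filter on low counts (0.0558) and passed with 10 counts in every sample (-0.10).

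To set levels side by side between genes, CPM was divided by the length in kb of the canonical mRNA. Which isoforms these cells use was not examined, and the SD does not cover it. On this scale CLTA was the most abundant with si-NT in both lines (74.8 ± 2.74 CPM per kb, SD, in A375 and 113 ± 2.57 in 1205Lu). TXNDC12 followed in A375 (53.7 ± 1.73), then STARD7 (17.2 ± 0.797), SLC39A9 (14.1 ± 0.685), RELL1 (9.22 ± 0.318), SLC44A1 (8.31 ± 0.0296), AMMECR1 (3.13 ± 0.283), RCAN3 (2.21 ± 0.265) and MPP4 (2.16 ± 0.225). RCAN3 and MPP4, the last in this order, lay within their spread. In 1205Lu the order after CLTA was RELL1 (46.7 ± 0.878), STARD7 (30.1 ± 0.230), TXNDC12 (26.5 ± 0.626), RCAN3 (16.1 ± 0.561), SLC39A9 (14.1 ± 0.596), AMMECR1 (11.9 ± 0.189), SLC44A1 (5.68 ± 0.134) and MPP4 (1.67 ± 0.222).

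Genes that overlap a member can share reads with it where the strand setting of the counting is not given, as here, although the libraries were strand-specific. CLTA overlaps GNE on the other strand, and GNE had log2 fold changes of -0.32 ± 0.0412 in A375 and 0.39 ± 0.0395 in 1205Lu (adjusted p of 6.12e-07 and 8.92e-08). SLC39A9 overlaps ERH on the other strand (-0.14 ± 0.0512, adjusted p of 0.0304, and 0.08 ± 0.0691, adjusted p of 0.385), and STARD7 overlaps STARD7-AS1 (0.68 ± 0.383, adjusted p of 0.149, and -0.21 ± 0.206, adjusted p of 0.467). RELL1 overlaps C4orf19, which had at most 180 counts in a sample (-1.07 ± 0.306, adjusted p of 0.00513, and -0.13 ± 0.150, adjusted p of 0.548), and AMMECR1 overlaps RTL9, with at most 144 counts (-1.23 ± 0.487, adjusted p of 0.0389, and 1.07 ± 0.222, adjusted p of 0.00057). On the strand of TXNDC12 lie KTI12 (-0.01 ± 0.122, adjusted p of 0.948, and -0.695 ± 0.148, adjusted p of 0.000725) and ENSG00000285839 (0.43 ± 0.0895 and 0.65 ± 0.144, adjusted p of 0.000265 and 0.0011). None of these neighbours was lower with si-FRA1 by a log2 fold change over 1 in both lines, and RTL9 was past 1 in size in opposite directions. RCAN3AS, on the other strand of RCAN3, had at most 8 counts in a sample.

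The relatives of the 9 genes were a list of 110 genes of the same families or the same steps, 95 of them tested in A375 and 93 in 1205Lu. In A375, 23 relatives were lower with si-FRA1 at an adjusted p under 0.05 by edgeR and 34 were higher, beside 25.1% and 25.7% of all genes tested. In 1205Lu, 29 were lower and 20 higher, beside 19.9% and 20.6%. The median log2 fold change of the relatives was -0.05 in A375 and 0.05 in 1205Lu. Of 91 relatives tested in both lines, 12 were lower with si-FRA1 in both, 10 were higher in both and 14 passed in opposite directions, beside 10.8%, 10.4% and 8.86% of all genes tested in both. By log2 fold change, 3 relatives were lower by over 1 in at least 1 line: ERO1A, SLC39A14 and SLC39A6.

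Among 25 genes of the clathrin coat and its adaptors, 5 were lower with si-FRA1 in both lines and 2 higher in both, set against the same 10.8% and 10.4% of all genes. CLTB, the other clathrin light chain, fell in both (33.8 ± 0.674 to 26.2 ± 0.998 CPM, SD, n = 3, in A375). Its log2 fold changes were 0.37 ± 0.0573 and 0.28 ± 0.0556 (adjusted p of 7.54e-06 and 0.000359). The heavy chain CLTC was lower with si-FRA1 in A375 (0.15 ± 0.0165, adjusted p of 3.65e-08) and higher in 1205Lu (-0.07 ± 0.0145, adjusted p of 0.000482). RELT, the founder of the family of RELL1, fell from 15.3 ± 0.354 to 8.81 ± 0.507 CPM in A375 and from 14.4 ± 1.06 to 9.48 ± 1.19 CPM in 1205Lu (0.80 ± 0.0937 and 0.62 ± 0.108, adjusted p of 1.25e-07 and 9.21e-05). RELL2 had values of the same sign that did not pass (0.42 ± 0.177 and 0.32 ± 0.128, adjusted p of 0.0518 and 0.0563).

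Of 17 zinc transporters tested in both lines, 4 were lower with si-FRA1 in both and 2 higher in both (again beside 10.8% and 10.4%). The importers SLC39A6 (0.73 ± 0.0347 and 1.12 ± 0.0373, adjusted p of 1.2e-14 and 5.12e-15) and SLC39A14 (1.08 ± 0.0512 and 0.85 ± 0.0498, adjusted p of 1.21e-14 and 3e-11) fell in both. Of 8 such genes of choline transport and use, none passed in the same direction in both lines, beside the same 10.8% lower and 10.4% higher of all genes. SLC44A2, the nearest relative of SLC44A1 on the list, was lower in A375 (0.25 ± 0.0493, adjusted p of 0.000153) and did not pass in 1205Lu (-0.09 ± 0.0607, adjusted p of 0.276). The high-affinity choline transporter SLC5A7 rose with si-FRA1 in A375, from 3.78 ± 0.332 to 12.02 ± 1.63 CPM (-1.66 ± 0.133, adjusted p of 1.87e-10), and was too scarce to test in 1205Lu.

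Of 10 genes with a START domain or acting on STARD7 that were tested in both lines, none was lower with si-FRA1 in both, beside 10.8% of all genes. PCTP, the phosphatidylcholine transfer protein most like STARD7 in its cargo, rose in both lines, from 6.56 ± 0.493 to 14.6 ± 0.438 CPM in A375 and from 10.9 ± 0.370 to 19.1 ± 0.989 CPM in 1205Lu (-1.15 ± 0.103 and -0.78 ± 0.0858, adjusted p of 1.28e-09 and 2.69e-07). PARL, the mitochondrial protease that cleaves STARD7, rose in A375 (-0.44 ± 0.102, adjusted p of 0.000924) and did not pass in 1205Lu (-0.12 ± 0.0698, adjusted p of 0.199). STARD10 also rose in A375 only by this test (-0.76 ± 0.182, adjusted p of 0.00118, against -0.24 ± 0.220, adjusted p of 0.428, in 1205Lu); the difference between lines was not tested. DLC1, which has a START domain, fell in A375 (0.32 ± 0.0273, adjusted p of 6.75e-10) and rose in 1205Lu (-1.10 ± 0.0380, adjusted p of 1.01e-14). Groups that did not overlap in either line and lay in opposite order, as those of DLC1 and CLTC did, were found in 11.4% of the genes tested in both lines.

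AMMECR1L, the only relative of AMMECR1 listed, did not pass in A375 (-0.12 ± 0.0791, adjusted p of 0.211) and rose slightly in 1205Lu (-0.14 ± 0.0520, adjusted p of 0.035). Among 6 other MAGUK scaffolds of the p55 group, 1 was lower with si-FRA1 in both lines, beside 10.8% of all genes, and none was past a log2 fold change of 1. Of 5 calcineurin genes tested in both lines none was lower in both, beside the same 10.8% of all genes. The RCAN3 relative RCAN1 did not pass in A375 (-0.06 ± 0.0812, adjusted p of 0.58) and rose in 1205Lu, from 454 ± 2.85 to 561 ± 11.4 CPM (-0.29 ± 0.0178, adjusted p of 6.18e-11). RCAN2 was near 1 CPM in A375 (-0.32 ± 0.278, adjusted p of 0.368) and too scarce to test in 1205Lu. The catalytic subunit PPP3CA rose in both lines (-0.17 ± 0.0338 and -0.33 ± 0.0454, adjusted p of 0.00013 and 5.29e-06). Of 17 tested genes with a thioredoxin fold or acting on one in the endoplasmic reticulum, 14 rose and 2 fell in A375, whereas 4 rose and 8 fell in 1205Lu. Of all genes tested, 25.7% rose and 25.1% fell in A375, and 20.6% rose and 19.9% fell in 1205Lu. Whether this family differed from other genes was not tested. ERO1A, the oxidase that feeds protein disulfide isomerases, fell in both, from 154 ± 4.26 to 56.2 ± 0.678 CPM in A375 and from 94.6 ± 1.36 to 35.6 ± 1.56 CPM in 1205Lu (adjusted p of 2.09e-20 and 1.13e-15). AGR2 was too scarce to test in either line.

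**Figure D2:**
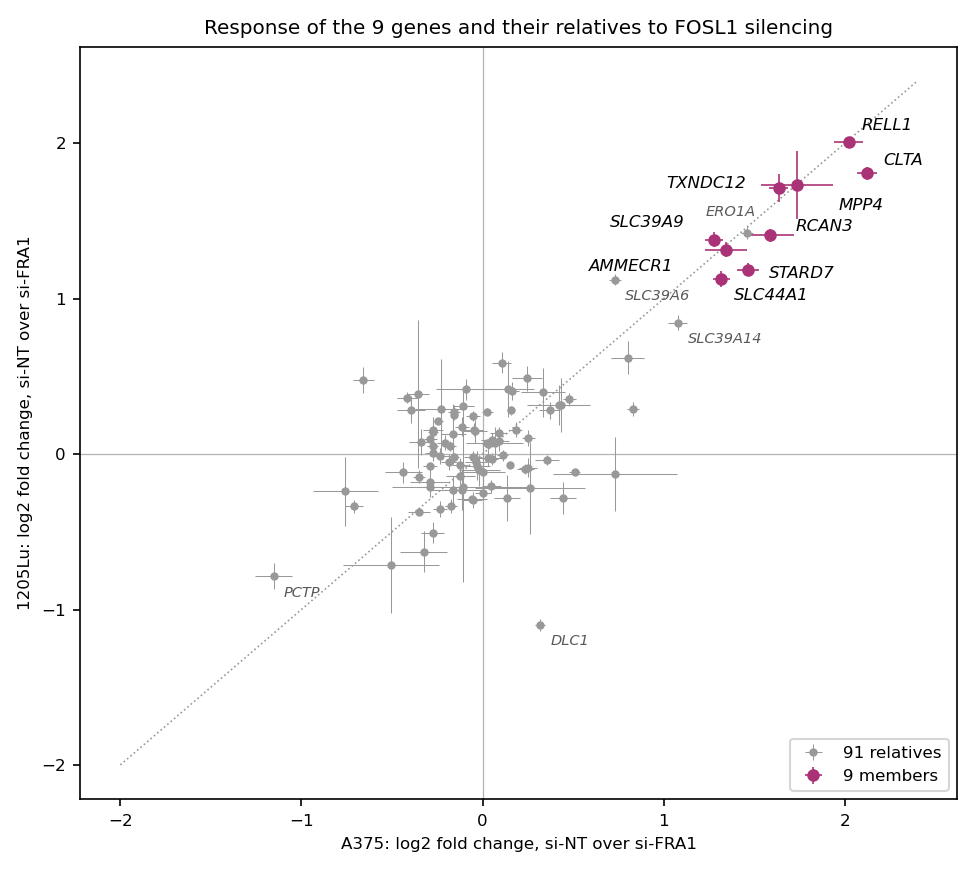
Log2 fold change, si-NT over si-FRA1, in A375 (horizontal axis) and in 1205Lu (vertical axis) with bars of ± SE for the 9 genes (purple) and the 91 relatives tested in both lines (grey), where the dotted line marks equal values. The 9 genes lie between 1.28 and 2.12 in A375 and between 1.125 and 2.01 in 1205Lu, where ERO1A is the 1 relative among them, and most relatives lie around 0.

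A 3'UTR with the 7 bases GAGTAGC was found in 5 of the 9 genes (CLTA, RELL1, SLC44A1, AMMECR1 and RCAN3), in 15.7% of the 12491 genes searched (protein-coding, tested in both lines and with a 3'UTR), and in 29 of the 45 other protein-coding genes called in both lines, FOSL1 left out. Since both sets of called genes were chosen on the silencing contrast, these shares are descriptions. Whether the sequence itself played a part in the choice of the 9 genes is not known. SLC39A9, STARD7, MPP4 and TXNDC12 did not hold the 7 bases anywhere in the transcripts searched. The last 6 of them were in the 3'UTR of 8 of the 9 genes, all but MPP4, and of 35.9% of genes. With a following A, AGTAGCA was in 6 of the 9 genes and 12.9% of genes, and the 8 bases GAGTAGCA were in AMMECR1 and RCAN3 and 2.51% of genes.

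The 3'UTR length, which sets how often any sequence is met, ranged from 285 bases in CLTA and 336 in MPP4 to 5763 in RCAN3 and 8290 in SLC44A1, beside a median of 1415 over the genes searched. Of the 1502 different 7-base sequences in the FOSL1 mRNA, 68 were in the 3'UTRs of 5 or more of the 9 genes. By the excess of their share among the 9 genes over that among all genes, AGTAGCA, which overlaps GAGTAGC by 6 bases, came 1st and GAGTAGC 11th. Among the 45 other genes called in both lines, GAGTAGC came 1st by this measure, with 64.4%. It had been picked out among genes lower with si-FRA1 in earlier work on these data. These ranks are therefore descriptions and no separate evidence. The sequence GGAAGAG was in 7 of the 9 genes but also in 24.5% of all genes and 26.7% of the 45.

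Over all genes searched, the median log2 fold change of those with the 7 bases was 0.09 in A375 and 0.05 in 1205Lu, beside -0.03 and -0.02 for those without. The fold changes of the 5 members with the 7 bases (1.32 to 2.12 in A375 and 1.125 to 2.01 in 1205Lu) and of the 4 without (1.28 to 1.73 and 1.19 to 1.73) overlapped.

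FRA1 Cut&Run gave a promoter peak, with an annotated start within 3 kb, for 8 of the 9 genes, 12 such peaks in all, and AMMECR1 had none. The share of all genes with such a peak, enriched or not, is not given here, so this count shows nothing particular to the 9 genes. Enrichment in a line was called if no FRA1 library held fewer than 10 counts or fewer than 4 times the IgG count after adding 1 to it, with unscaled counts. By this rule 4 of the 9 genes had an enriched promoter peak in A375 (RELL1, SLC39A9, STARD7 and MPP4), beside 35.5% of 12638 protein-coding genes, and 1 in 1205Lu (MPP4), beside 5.03%. The share in A375 was thus near that of all genes. With FRA1 and IgG scaled to the same total in peaks, none of the 9 genes kept an enriched promoter in A375, and 0.158% of all genes did, so the calls in A375 depend on its FRA1 libraries having more counts in peaks in all than its IgG library. At 8 times IgG, 1 gene was left in A375. In 1205Lu, 3 genes passed at 2 times IgG or without replicate 1, and none with a start within 1 kb.

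The MPP4 promoter carried the highest FRA1 counts of the 12 peaks. The peak over its start (chr2:201697648-201699004) held 144, 238 and 208 counts in the A375 FRA1 libraries and 10 in IgG, but 13, 30 and 28 against 6 in 1205Lu. A second peak (chr2:201695977-201696834), 1162 bp from the nearest start, held 80, 123 and 109 counts against 5 in A375 and 51, 150 and 117 against 5 in 1205Lu. It was the 1 promoter peak enriched in both lines. The STARD7 promoter (chr2:96208301-96208973) held 87, 151 and 111 counts against 11 in A375 and 35, 58 and 45 against 10 in 1205Lu, where replicate 1 missed the limit. The SLC39A9 promoter (chr14:69398290-69399009) held 86, 142 and 97 counts against 13 in A375 and 12, 27 and 24 against 8 in 1205Lu.

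RELL1 had 4 promoter peaks, 3 of them enriched in A375. The peak at its farthest upstream start (chr4:37686038-37687163) held 78, 86 and 76 counts against 15 in IgG in A375, and 14, 27 and 19 against 12 in 1205Lu. Peaks near an internal start held 49, 86 and 71 against 8 (chr4:37666470-37667950) and 49, 67 and 50 against 9 (chr4:37661750-37662561) in A375, and at most 14 counts in a 1205Lu library. The remaining one (chr4:37662921-37663665) held 17, 34 and 28 against 4 in A375, where replicate 1 missed the limit.

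The promoter peaks of CLTA, RCAN3, TXNDC12 and SLC44A1 were not enriched in either line. The CLTA promoter (chr9:36190208-36191098) held 32, 47 and 53 counts against 14 in A375, and its 9, 14 and 17 counts in 1205Lu were about those of IgG, 16. RCAN3 (chr1:24515506-24516273) held 36, 57 and 29 against 7 in A375, where replicate 3 missed the limit, and 7, 9 and 3 against 5 in 1205Lu. TXNDC12 (chr1:52055241-52055785) held 11, 16 and 26 against 8 in A375 and 3, 1 and 6 against 3 in 1205Lu. The only SLC44A1 peak at a start (chr9:105296731-105297158) lay at an internal start and held 12, 2 and 5 counts against 2 in A375 and 16, 38 and 25 against 5 in 1205Lu.

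**Figure D3:**
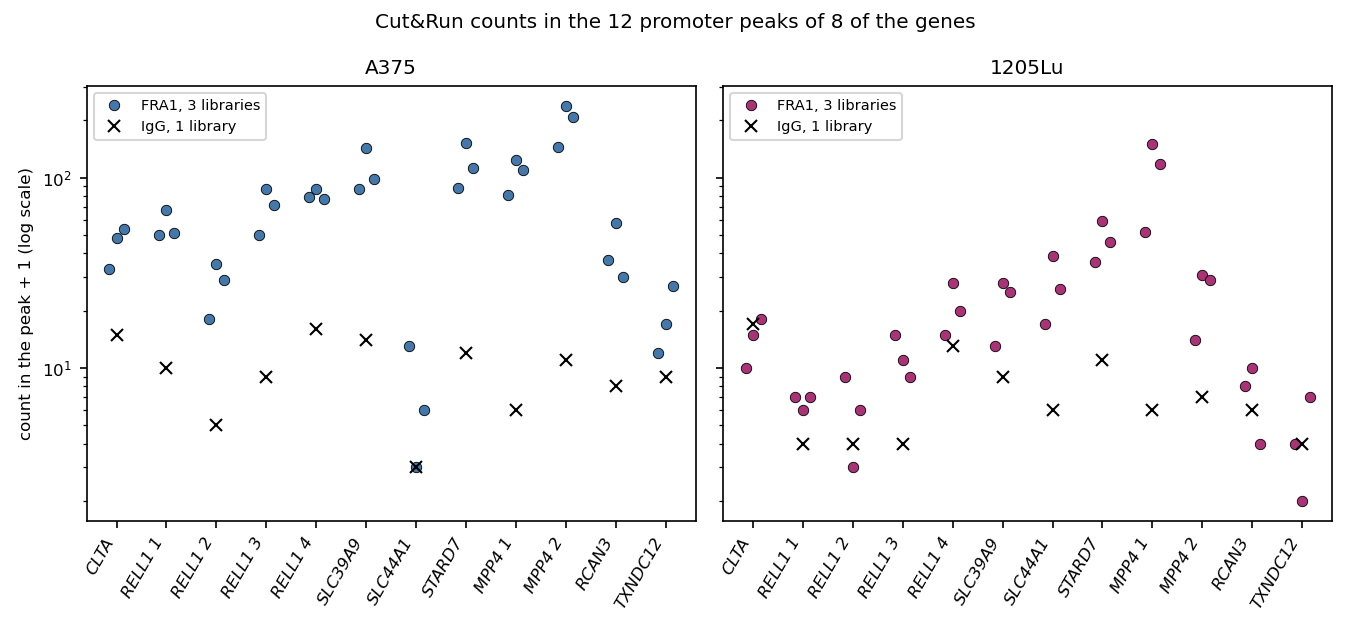
Counts plus 1 (vertical axis, log scale) in each of the 12 promoter peaks of 8 of the genes (horizontal axis, peaks of 1 gene numbered by position) in the 3 FRA1 libraries (circles) and the 1 IgG library (crosses) of A375 (left) and 1205Lu (right). In A375 the circles of SLC39A9, STARD7, MPP4 and 3 RELL1 peaks stand at least 4 times above the cross, whereas in 1205Lu this holds for the first MPP4 peak alone.

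Within the genes, away from starts, AMMECR1 had a peak enriched in both lines (chrX:110210088-110211072), with 42, 64 and 53 counts against 6 in A375 and 19, 45 and 50 against 3 in 1205Lu. The strongest peak within SLC39A9 (chr14:69423979-69424797) held 62, 131 and 137 counts against 3 in 1205Lu and 10, 15 and 8 against 0 in A375, where it was not called enriched. The highest such peaks of RELL1 (chr4:37648083-37648664, 68, 110 and 81 counts against 9), CLTA (chr9:36283821-36284994, 47, 75 and 61 against 4), SLC44A1 (chr9:105299217-105299980, 31, 60 and 51 against 5), MPP4 (chr2:201652248-201653008, 40, 43 and 47 against 9) and RCAN3 (chr1:24540772-24541546, 32, 49 and 34 against 5) were enriched in A375 alone by this rule. In 1205Lu the RELL1 peak held 18, 33 and 28 against 5 and the SLC44A1 peak 18, 46 and 39 against 6, where replicate 1 missed the limit. Relative to normalised library size both had more in 1205Lu by edgeR (-0.98 ± 0.22, adjusted p of 0.00059, and -2.21 ± 0.25, adjusted p of 5.8e-08, A375 over 1205Lu). The peaks of CLTA, MPP4 and RCAN3 did not pass. STARD7 and TXNDC12 had no peak within the gene outside the promoter. Over all 64 peaks within 50 kb, 31 were enriched in A375, 5 in 1205Lu and 2 in both, beside 57.4%, 7.09% and 4.5% of all 54563 peaks. Every gene but TXNDC12 had at least 1 in A375, a count for which no share over all genes is given here. TXNDC12 had 1 enriched in 1205Lu, outside the gene (chr1:51973723-51974145), with 20, 16 and 22 counts against 3.

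The letters TGAGTCA or, on the other strand, TGACTCA, the usual AP-1 site, were in 35 of the 64 peaks (54.7%) and in 57.7% of all 54563 peaks. They were in 6 of the 12 promoter peaks, of which 5 were enriched in A375. These are shown with the plus strand of GRCh38 and the AP-1 letters in capitals, as the places where a promoter peak and the letters coincide.
RELL1, internal start, chr4:37662071-37662097: aatgctaccaTGAGTCAtgagccctgg
RELL1, internal start, chr4:37667663-37667689: catttcctagTGAGTCAgttattagga
SLC39A9, chr14:69398976-69399002: caggttcgctTGAGTCActtacccgcc
MPP4, enriched in both lines, chr2:201696240-201696266: cacttgtaatTGAGTCAgattaaacaa
MPP4, over the start, chr2:201698075-201698101: agccagttctTGACTCAgaagatgcat
In the RELL1 peak at 37661750 and the MPP4 peak enriched in both lines, the letters shown lay at -71 and -69 bp from the peak centre, negative values being to its left on the plus strand. In the other RELL1 peak, SLC39A9 and the other MPP4 peak they lay farther out, at 466, 340 and -237 bp. The STARD7 promoter peak and the upstream RELL1 promoter peak did not hold these letters.

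The difference in FRA1 counts between lines was tested over 53300 peaks with edgeR. Of the 64 peaks near the 9 genes, 8 had more in A375 and 29 more in 1205Lu relative to the normalised library size, beside 29.0% and 24.3% of all peaks. Of the 12 promoter peaks, none had more in A375 and 5 more in 1205Lu: SLC44A1 (-4.69 ± 0.425, adjusted p of 1.2e-09), the MPP4 peak enriched in both lines (-2.63 ± 0.228, adjusted p of 5.6e-10), STARD7 (-1.36 ± 0.190, adjusted p of 1.4e-06), CLTA (-0.975 ± 0.304, adjusted p of 0.0089) and the upstream RELL1 peak (-0.69 ± 0.255, adjusted p of 0.026). These signs depend on the scaling: without it, 39 of the 64 peaks had more in A375 and 11 more in 1205Lu, the share of called peaks with more in A375 over all peaks was 90.3% in place of 54.4% (43.7% with DESeq2), and the median log2 fold change of all peaks was 2.34 in place of 0.24. SLC44A1 then still passed with more in 1205Lu, the MPP4 peak enriched in both lines kept its sign without passing (-0.61), and CLTA, STARD7 and the upstream RELL1 peak changed sign. Without 1205Lu replicates 2 and 3, 4 peaks had more in A375 and 19 more in 1205Lu, and CLTA (-0.54) and the upstream RELL1 peak (-0.32) no longer passed. Without A375 replicate 1, 4 peaks had more in A375, and the upstream RELL1 peak did not pass without A375 replicate 2 (-0.56) or 3 (-0.64), with DESeq2 (-0.83) or with scaling to total counts in peaks (-0.50). The MPP4 peak over the start passed with more in A375 with scaling to total counts in peaks (0.55), without scaling (2.47) and without 1205Lu replicates 2 and 3 (1.08). SLC39A9 passed with more in 1205Lu without 1205Lu replicate 1 (-0.80). With all 6 FRA1 libraries kept separate, 7 peaks had more in A375 and 28 more in 1205Lu.

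Set side by side, 1 of the 5 genes with the 7 bases in the 3'UTR had an enriched promoter peak in A375 (RELL1), as did 3 of the 4 without them (SLC39A9, STARD7 and MPP4). The 3'UTR site that places RELL1 among the 5 genes (chr4:37612063-37612069) is not the site shown, which spans its stop codon. TXNDC12 had neither the 7 bases nor an enriched promoter peak, with log2 fold changes of 1.635 and 1.71. Its only enriched peak, in 1205Lu, lay outside the gene. Of the 4 genes without the 7 bases, SLC39A9, STARD7 and TXNDC12 held AGTAGC in the 3'UTR, and SLC39A9 and TXNDC12 held AGTAGCA. CLTA, SLC44A1, AMMECR1 and RCAN3 had the 7 bases and no enriched promoter peak. The log2 fold changes of the 4 genes with an enriched promoter peak in A375 (1.28 to 2.02) lay within the range of the 5 without one (1.32 to 2.12) except for SLC39A9, at 1.28. The part of FRA1 binding or of sequence matches in the lower levels was not tested, and no sample with a different siRNA or another way of silencing was analysed here.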

How the data were processed

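RNA-seq was analysed in 12 samples and Cut&Run in 8. The authors removed adapters with cutadapt 1.8.1, aligned RNA-seq reads to GRCh38 with STAR 2.7.7a and estimated expected counts per gene with RSEM 1.3.0 on GENCODE v30; the deposited expected counts were whole numbers, not normalized. For Cut&Run the authors aligned reads with Bowtie2 2.4.1, called peaks with MACS2 and deposited the read count of each sample in each consensus peak. The sources used here do not say if the peak calls used single or pooled libraries.

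The members, the relatives and the 7-base sequence were chosen with earlier results of these data known. Genes named are the 9 members, FOSL1, genes overlapping a member, relatives past a log2 fold change of 1 or acting directly with a member, the 5 nearest genes and those at the fold limit; peaks named are promoter peaks and the strongest peak within each gene, with 1205Lu-enriched peaks added after their values were seen. Each comparison was fitted on its own groups with edgeR 4.0.16 (filterByExpr, TMM, glmQLFit and glmQLFTest, Benjamini-Hochberg adjustment over all genes or peaks tested). SE is the log2 fold change over the root of the F statistic. CPM uses TMM sizes over the 12 samples. GENCODE v44 held 99.8% of protein-coding genes tested in both lines by identifier and gave starts, 3'UTRs and positions. Counts and totals of 20573412 to 32518903 per RNA-seq sample limit precision at MPP4, and IgG had 1 library per line. Some sequence matches are not reported here. The tests were run on simulated data first. Alternatives were DESeq2 1.42.0, other normalizations and filters, a replicate block, other limits over IgG, other sequence lengths and leaving out each library. Same-numbered samples were checked for pairing, and their deviations did not go together.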

Additional observations from a re-analysis of the deposited data

Results flagged for a closer look

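Among the members, the named relatives and the genes overlapping a member, 44 genes in all of which 31 were tested in both lines, 4 had si-NT and si-FRA1 samples that did not overlap in either line and lay in opposite order in A375 and 1205Lu, as did 11.4% of all genes tested in both, and the difference between lines was not tested. DLC1 had log2 fold changes, si-NT over si-FRA1, of 0.32 in A375 and -1.10 in 1205Lu. RTL9, which overlaps AMMECR1 on the other strand and had at most 144 counts in a sample, had -1.23 and 1.07. GNE, which overlaps CLTA on the other strand, had -0.32 and 0.39. CLTC, the clathrin heavy chain, had 0.15 and -0.0713.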

How the results depend on the processing

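The 9 genes stayed past both limits in each line under every alternative run: DESeq2, upper-quartile normalization, no filter, 10 counts in every sample, all samples in one fit, protein-coding genes only, the replicate block and each sample left out. They were chosen by these limits on the same samples, so this count is a description and no separate evidence. The replicate numbers were not taken to pair samples (correlations of same-numbered deviations of -0.049 to 0.037), and the replicate block changed the call of none of the 9 genes in any RNA-seq comparison (count of 9 in each line); with 6 separate Cut&Run libraries it gave 26744 called peaks in place of 28517 without the block. With 10 counts in every sample, 211 genes were higher with si-NT in 1205Lu in place of 350, where fewer genes were tested. With si-NT, SLC39A9 passed with 10 counts in every sample (-0.10) and changed sign with no filter (0.0558). For FRA1 between lines, 44318 peaks were called without scaling, 39 of those near the 9 genes with more in A375 and 11 with more in 1205Lu, and DESeq2 left 3 with more in A375; the cause was not tested. Leaving out libraries gave 4 to 7 with more in A375, 19 to 30 with more in 1205Lu and 18976 to 28737 called in all. Without scaling, the sign turned for promoter peaks of CLTA (1.13), RELL1 (1.79, 2.09 and 1.41), SLC39A9 (1.78), STARD7 (0.75), RCAN3 (2.08) and TXNDC12 (1.796). Enriched promoters in A375 numbered 1 at 8 times IgG, 0 with scaling to the same total and 4 to 5 with a library left out; in 1205Lu they numbered 3 at 2 times IgG, 0 with a start within 1 kb and 1 to 3 with a library left out. The sequence was held by 2 members with 8 bases and by 8 with 6 bases.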
